A study of Mus musculus with 4 samples.

Results

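The clustered Hox genes are the genes of the HoxA, HoxB, HoxC and HoxD clusters, chosen here by symbol as every gene named Hox with the letter of a cluster and a paralogue number. The annotation holds 39 such genes, and 28 of them were on at least 1 of the 3 complete gene lists deposited for the study, out of 29652 genes on those lists in all. Each list belongs to 1 single-cell RNA sequencing library of mouse fetal pancreas, and a gene is either on it or not. No count or expression level was analysed here, so the unit throughout is a listing, the depth behind each list is unknown, and a listed gene may have been seen in many cells or in very few.

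There were 4 libraries from C57BL/6 mice, 1 per group. The E15.5 KO and E13.5 KO libraries came from Setd2 f/f embryos that also carried Pdxcre, and the E15.5 WT and E13.5 WT libraries from Setd2 f/f embryos that the labels call WT. The f/f alleles, a form of the gene that Cre can cut out, are thus shared by all 4 groups. Pdxcre drives recombination in the pancreatic epithelium, and which other cells of a KO library it reached was not examined. Tissue was dissociated with TrypLE, labelled for the epithelial protein EpCAM and sorted by flow cytometry. The number of embryos in a library is not given in the sources used here. Setd2, which encodes a histone H3 lysine methyltransferase, was listed in E15.5 KO, E13.5 KO and E13.5 WT, and the cut E15.5 WT list does not reach it. A listing does not check the deletion. The E15.5 KO list held 25474 genes (16717 of them protein-coding), the E13.5 KO list 26341 (17154) and the E13.5 WT list 25463 (17108). The E15.5 WT list stops after 167 complete lines and covers only 3 of the 39 Hox genes. All 12 pancreatic epithelial markers, among them Pdx1, Epcam and Neurog3, were in each complete list. Of 80 markers of other cell types, 66 were listed in E15.5 KO, 78 in E13.5 KO and 80 in E13.5 WT. Listing therefore does not show which cell types the sort kept. With 1 library per group there is no replicate spread and no p-value.

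Hox genes encode transcription factors that bind DNA through a homeodomain and give cells a position along the head-to-tail axis. Within a cluster all genes are read in the same direction, and genes of low paralogue number are switched on earlier and farther towards the head than genes of high number. Genes with the same number in different clusters are paralogues with overlapping functions. Around the gut tube they are known from the mesoderm that surrounds the epithelium. In the mouse pancreas the paralogues numbered 6, Hoxa6, Hoxb6 and Hoxc6, are known to act in the mesenchyme and to be needed for endocrine differentiation.

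The listed Hox genes were mostly those of low and middle paralogue number, and fewer of them were on the E15.5 KO list than on either E13.5 list. It held 17 Hox genes, against 26 in E13.5 KO and 26 in E13.5 WT. Each of the 17 was also in both E13.5 lists, so no Hox gene was listed in E15.5 KO alone or in E15.5 KO with only 1 of the E13.5 lists. The 26 genes of E13.5 KO and the 26 of E13.5 WT shared 24. A further 7 genes were in both E13.5 lists and not in E15.5 KO, 2 were in E13.5 KO alone and 2 in E13.5 WT alone. The remaining 11 genes were in none of the complete lists, which is 28.2% of the 39 annotated Hox genes, beside 18.2% of all annotated protein-coding genes.

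**Figure D1:**
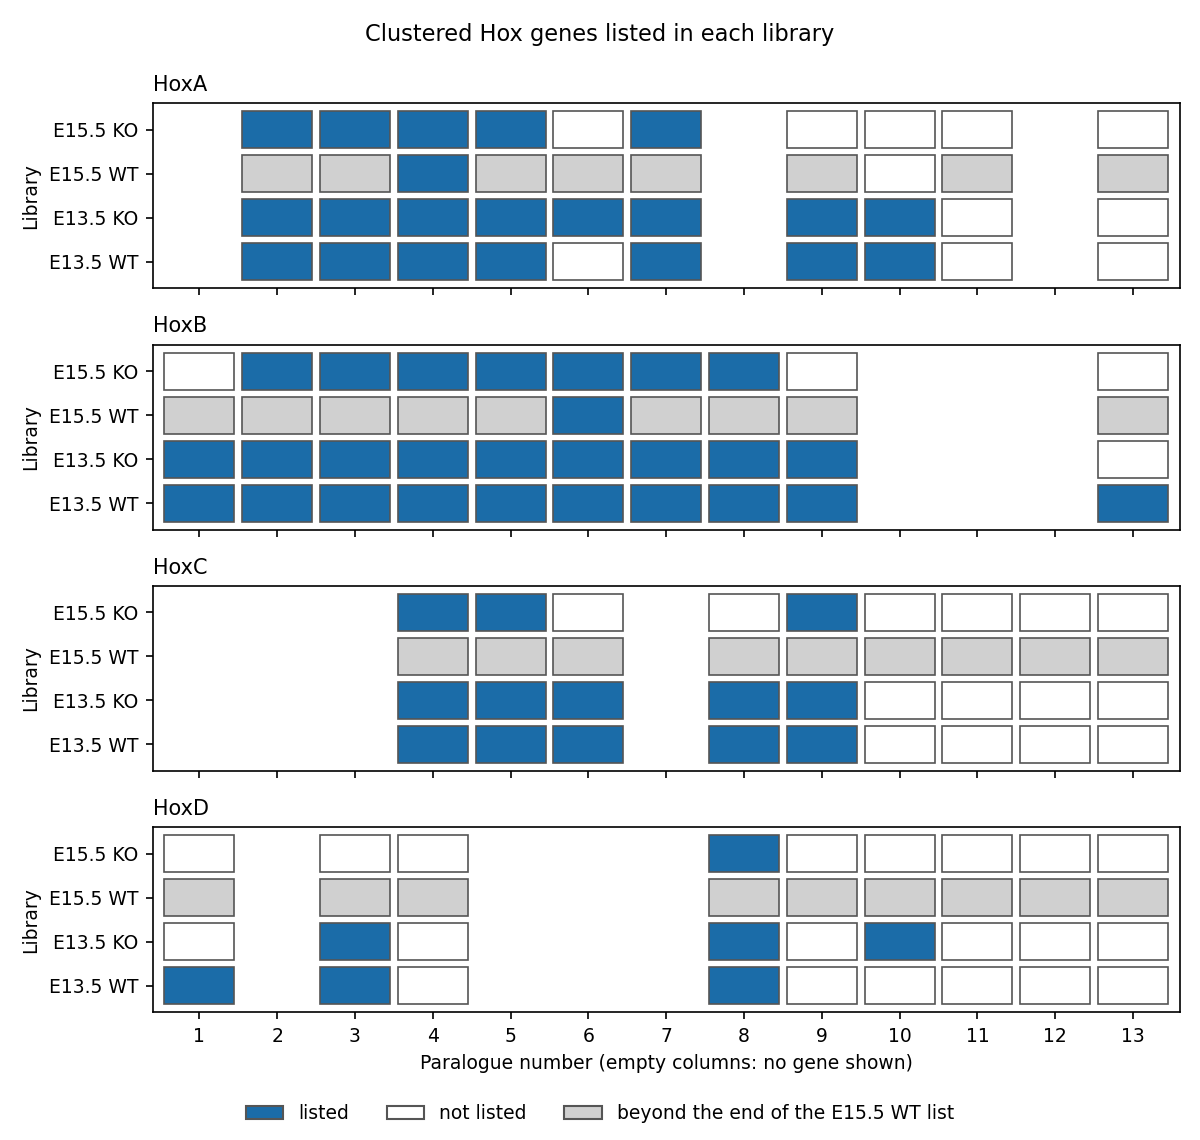
Each row is a library, each column a paralogue number and each panel a cluster, for the genes reported here, with blue for listed, white for not listed and grey for genes that the cut E15.5 WT list does not reach. The 26 Hox genes of E13.5 KO and the 26 of E13.5 WT differ by 2 genes in each direction, and the 17 of E15.5 KO lie within both sets.

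Among the 17 genes in all 3 complete lists were Hoxa2, Hoxa3, Hoxa4, Hoxa5, Hoxa7, Hoxb2, Hoxb3, Hoxb4, Hoxb5, Hoxb6, Hoxb7, Hoxb8, Hoxc4, Hoxc5, Hoxc9 and Hoxd8. Of these, Hoxa2 and Hoxb2 are known from the patterning of the hindbrain and pharyngeal arches, Hoxa3 is needed for the thymus and parathyroid, and Hoxa5 for the lung. Hoxb4 and Hoxb8 are known from blood progenitors, and Hoxb6 is one of the paralogues known from pancreatic mesenchyme. Hoxc9, known from motor neurons of the thoracic spinal cord, was the single gene numbered 9 or higher among the 17.

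By cluster, HoxB had the most complete listing and HoxD the least. The clusters differ in how many genes numbered 9 to 13 they hold, and 10 of these 16 genes were in no complete list. Whether the clusters differ beyond this was not tested. HoxB (chromosome 11, 96194316 to 96368256, mm10/GRCm38) had 7 of its 10 genes listed in E15.5 KO, against 9 in E13.5 KO and 10 in E13.5 WT. HoxA (chromosome 6) had 6 of 11 in E15.5 KO, 9 in E13.5 KO and 8 in E13.5 WT. HoxC (chromosome 15, 102921103 to 103036852) had 3 of 9 in E15.5 KO, 5 in E13.5 KO and 5 in E13.5 WT. HoxD (chromosome 2, 74668310 to 74765142) had 1 of 9 in E15.5 KO, 3 in E13.5 KO and 3 in E13.5 WT. The gene that HoxD kept in every complete list was Hoxd8, which lies 57.2 kb from the low-number border of the cluster, farther in than Hoxd1, Hoxd3 and Hoxd4.

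By paralogue number, listings stopped near number 9 or 10 with a single exception. Of the 8 anterior genes, numbered 1 to 3, 5 were listed in E15.5 KO, 7 in E13.5 KO and 8 in E13.5 WT. Of the 15 central genes, numbered 4 to 8, 11 were listed in E15.5 KO, 14 in E13.5 KO and 13 in E13.5 WT. Of the 16 posterior genes, numbered 9 to 13, 1 was listed in E15.5 KO, 5 in E13.5 KO and 5 in E13.5 WT. Posterior genes were thus 5.88% of the Hox genes listed in E15.5 KO, 19.2% in E13.5 KO and 19.2% in E13.5 WT. The exception is Hoxb13, known from the prostate and the tail end of the body, which E13.5 WT held. It lies 171 kb from the low-number border of HoxB, beyond a long gap after Hoxb9 at 91.7 kb. No gene numbered 11 or 12 was in a complete list. Mice need the paralogues numbered 11 for the kidney and those numbered 13 for digits and the urogenital tract.

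Every paralogue number from 2 to 9 nevertheless had at least 1 listed gene in each of the 3 complete lists. Of the 3 genes numbered 6, E15.5 KO held 1, Hoxb6, against 3 in E13.5 KO and 2 in E13.5 WT. Of the 4 numbered 9 it held 1, Hoxc9, against 3 in E13.5 KO and 3 in E13.5 WT. Numbers 2, 5 and 7 had all of their genes in each complete list.

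**Figure D2:**
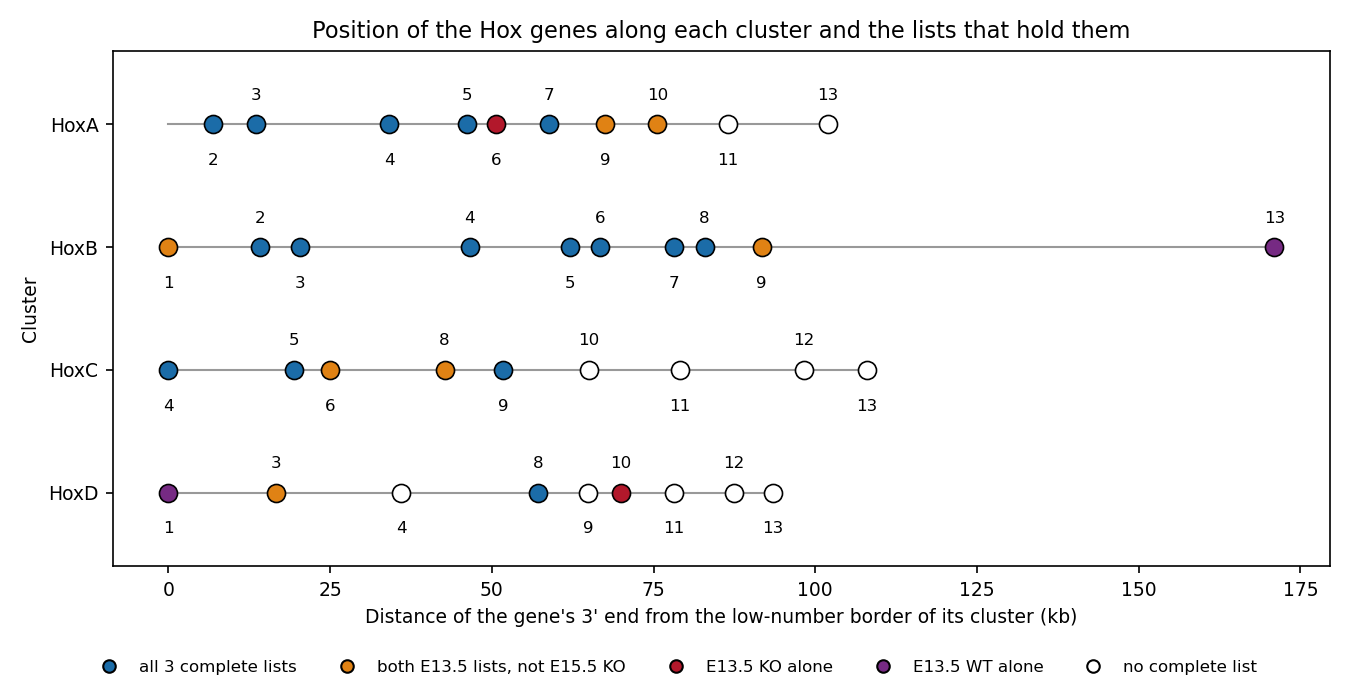
Each circle is a Hox gene of those reported here, placed by the distance in kb of its 3′ end from the border of its cluster on the side of the low paralogue numbers, with the paralogue number beside it and the colour giving the lists that held it. In HoxB the genes of all 3 complete lists form an unbroken run from number 2 to number 8, with Hoxb1 and Hoxb9 at its ends in both E13.5 lists and not in E15.5 KO.

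The comparison of E15.5 KO with E13.5 KO asks how the Hox genes listed in the sorted KO pancreas differed with age. No Hox gene was in E15.5 KO only and 9 were in E13.5 KO only, which is 34.6% of the 26 listed in either. Over all genes listed in either library, 7.37% were in E15.5 KO only and 10.4% in E13.5 KO only. Over protein-coding genes, 2.55% were in E15.5 KO only and 5.03% in E13.5 KO only. These backgrounds were not matched to the Hox genes for expression level. Among markers of cell types other than the pancreatic epithelium, 1.27% were in E15.5 KO only and 16.5% in E13.5 KO only. Whether the Hox genes differ from other genes of like level was not tested. The 9 genes were spread over the clusters, with 3 of 9 in HoxA, 2 of 9 in HoxB, 2 of 5 in HoxC and 2 of 3 in HoxD. They made up 2 of the 7 anterior, 3 of the 14 central and 4 of the 5 posterior genes listed in either KO library. Set against E13.5 WT in place of E13.5 KO, E15.5 KO again lacked 9 Hox genes and added 0, beside 2.89% of protein-coding genes in E15.5 KO only and 5.11% in E13.5 WT only. Over all genes these shares were nearly even, 9.31% in E15.5 KO only and 9.27% in E13.5 WT only. The genes that E15.5 KO lacked in both of these comparisons numbered 7, or 25% of the 28, beside 3.09% of the protein-coding genes on any complete list. The share of all genes with this pattern was not counted. The E15.5 KO library takes part in all of these values, so they share it and are not separate evidence.

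Of the 7 genes in both E13.5 lists and not in E15.5 KO, 3 are posterior. Hoxa9 (chromosome 6, 52223100 to 52231089), known from blood progenitors, and Hoxa10 (52231197 to 52240854), known from the uterus, are neighbours in HoxA. Hoxb9 (chromosome 11, 96271457 to 96276595) is the next gene after the unbroken run of HoxB. Hoxc6 (chromosome 15, 102998257 to 103011881), the pancreatic mesenchyme paralogue, and Hoxc8 (102990607 to 102994111), known from motor neurons at the level of the forelimb, are neighbours in HoxC and lie between Hoxc5 and Hoxc9, which were listed in E15.5 KO. Hoxb1 (chromosome 11, 96365752 to 96368256), a hindbrain gene, and Hoxd3 (chromosome 2, 74711927 to 74748442), known from the neck vertebrae, are anterior. The missing genes were therefore not only those at the high-number end.

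The other 2 of the 9 were Hoxa6 (chromosome 6, 52206288 to 52208722) and Hoxd10 (chromosome 2, 74691924 to 74695105), which E13.5 KO alone held. Hoxd10 is known from the limb and the lumbar spinal cord. With Hoxa6 and Hoxc6 absent from the E15.5 KO list, Hoxb6 was the 1 gene numbered 6 that it held. E13.5 KO held Hoxa6, Hoxb6 and Hoxc6, and E13.5 WT held Hoxb6 and Hoxc6.

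Between the genotypes at E13.5, the question was which Hox genes were listed in 1 of them only. E13.5 KO alone held Hoxa6 and Hoxd10, and E13.5 WT alone held Hoxb13 (chromosome 11, 96194316 to 96197447) and Hoxd1 (chromosome 2, 74762980 to 74765142), a gene of pain-sensing neurons in the mouse. These 4 are 14.3% of the 28 Hox genes listed in either, beside 16.3% of all genes and 6.08% of protein-coding genes. In each direction the share was 7.14% of the Hox genes. Protein-coding genes stood at 3.17% in E13.5 KO only and 2.91% in E13.5 WT only, and all genes at 9.72% in E13.5 KO only and 6.61% in E13.5 WT only. The Hox genes in HoxC were the same 5 in both genotypes, and the 2 listed in 1 genotype only in HoxD went in opposite directions. None of these 4 genes was listed in E15.5 KO.

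**Figure D3:**
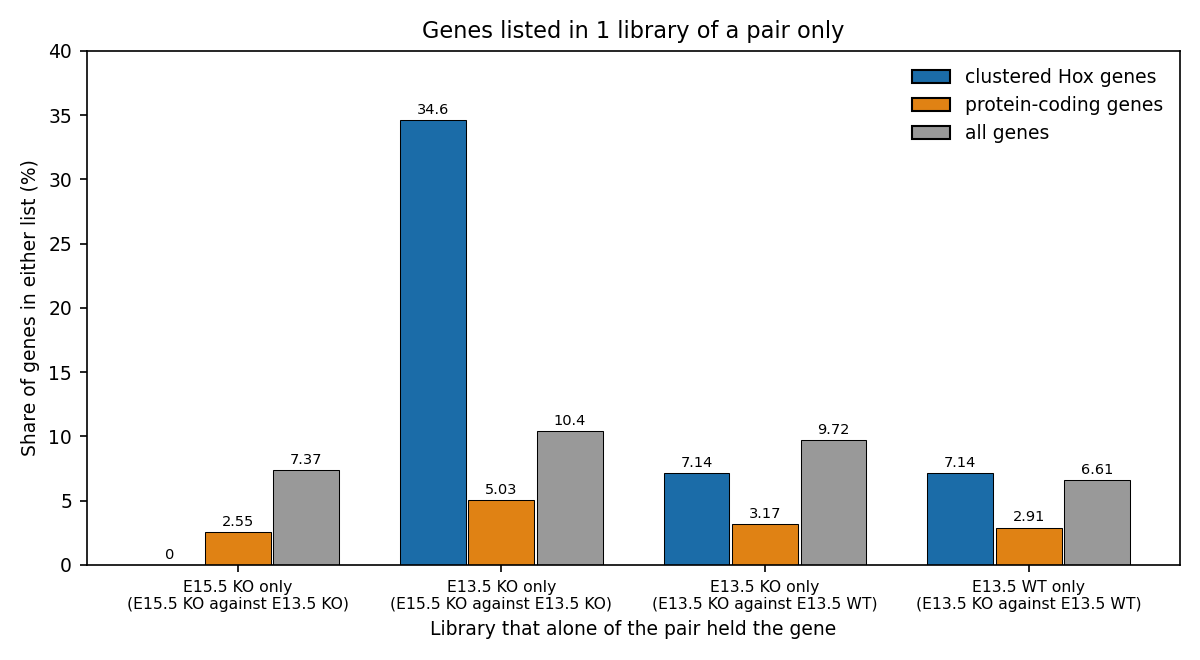
Bars give the percentage of the genes listed in either library of a pair that only the named library held, for the clustered Hox genes, all protein-coding genes and all genes. Between the KO ages the Hox genes are at 0% for E15.5 KO only and at 34.6% for E13.5 KO only, where protein-coding genes are at 2.55% for E15.5 KO only and 5.03% for E13.5 KO only.

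The E15.5 WT list covers the identifiers of Hoxa4, Hoxa10 and Hoxb6. It held Hoxa4 and Hoxb6 and not Hoxa10, as did the E15.5 KO list. Over this stretch 4.68% of protein-coding genes differed between E15.5 KO and E15.5 WT. Against E13.5 WT, E15.5 WT lacked 1 of the 3, Hoxa10, and added 0 Hox genes. There 1.14% of protein-coding genes were in E15.5 WT only and 5.14% in E13.5 WT only. Hoxa10 was therefore in both E13.5 lists and in neither E15.5 list. For the other 36 Hox genes, genotypes at E15.5 were not compared.

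Promoter sequences are shown for the first 6 genes, by cluster and number, whose listing differed between complete lists and for which RefSeq gives a window, with Hoxa3 beside Hoxd3 as the paralogue that every complete list held. Each window runs from 250 bases before to 50 bases after a RefSeq start site (GRCm38.p6) and is written 5′ to 3′ on the strand of the gene. Capitals mark TAAT, the core that homeodomains bind, and TGATNNAT, a form of the joint site of Hox and Pbx proteins, on either strand. The windows are chr6:52208623-52208922 (minus strand) for Hoxa6, chr6:52227321-52227620 (minus) for Hoxa9, chr6:52240805-52241104 (minus) for Hoxa10, chr11:96365508-96365807 (plus) for Hoxb1, chr2:74762730-74763029 (plus) for Hoxd1, chr2:74711743-74712042 (plus) for Hoxd3 and chr6:52213018-52213317 (minus) for Hoxa3.
Hoxa6: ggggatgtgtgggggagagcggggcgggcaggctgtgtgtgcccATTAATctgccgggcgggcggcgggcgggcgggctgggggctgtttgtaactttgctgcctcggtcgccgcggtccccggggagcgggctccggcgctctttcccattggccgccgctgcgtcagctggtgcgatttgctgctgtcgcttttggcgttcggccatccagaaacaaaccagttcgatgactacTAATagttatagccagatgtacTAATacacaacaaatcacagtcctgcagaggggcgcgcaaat
Hoxa9: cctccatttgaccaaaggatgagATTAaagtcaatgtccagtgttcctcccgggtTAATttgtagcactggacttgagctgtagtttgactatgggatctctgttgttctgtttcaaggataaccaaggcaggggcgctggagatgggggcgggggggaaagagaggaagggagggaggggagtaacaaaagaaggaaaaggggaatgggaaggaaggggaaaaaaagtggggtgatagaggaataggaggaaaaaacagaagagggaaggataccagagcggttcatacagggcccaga
Hoxa10: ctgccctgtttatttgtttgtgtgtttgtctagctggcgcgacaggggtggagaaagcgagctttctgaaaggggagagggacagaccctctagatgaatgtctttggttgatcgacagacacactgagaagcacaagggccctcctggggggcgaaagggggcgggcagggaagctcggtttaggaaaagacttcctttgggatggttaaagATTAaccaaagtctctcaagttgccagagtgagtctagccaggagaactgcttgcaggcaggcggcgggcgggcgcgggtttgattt
Hoxb1: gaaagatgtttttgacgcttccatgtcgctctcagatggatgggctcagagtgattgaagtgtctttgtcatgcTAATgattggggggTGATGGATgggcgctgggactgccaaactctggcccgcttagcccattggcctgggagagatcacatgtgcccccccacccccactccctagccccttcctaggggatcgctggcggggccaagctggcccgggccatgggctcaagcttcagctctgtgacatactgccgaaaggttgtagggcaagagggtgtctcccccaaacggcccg
Hoxd1: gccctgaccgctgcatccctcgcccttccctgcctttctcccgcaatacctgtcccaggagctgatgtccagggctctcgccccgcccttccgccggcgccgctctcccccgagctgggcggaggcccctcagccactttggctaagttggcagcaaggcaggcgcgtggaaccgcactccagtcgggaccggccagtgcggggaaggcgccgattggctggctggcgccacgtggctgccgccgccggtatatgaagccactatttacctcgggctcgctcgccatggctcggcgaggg
Hoxd3: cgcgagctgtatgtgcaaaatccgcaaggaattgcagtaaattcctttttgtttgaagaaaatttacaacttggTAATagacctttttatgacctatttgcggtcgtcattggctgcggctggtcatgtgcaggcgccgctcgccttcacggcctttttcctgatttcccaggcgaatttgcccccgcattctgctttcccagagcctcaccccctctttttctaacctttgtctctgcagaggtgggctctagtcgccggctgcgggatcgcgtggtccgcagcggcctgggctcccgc
Hoxa3: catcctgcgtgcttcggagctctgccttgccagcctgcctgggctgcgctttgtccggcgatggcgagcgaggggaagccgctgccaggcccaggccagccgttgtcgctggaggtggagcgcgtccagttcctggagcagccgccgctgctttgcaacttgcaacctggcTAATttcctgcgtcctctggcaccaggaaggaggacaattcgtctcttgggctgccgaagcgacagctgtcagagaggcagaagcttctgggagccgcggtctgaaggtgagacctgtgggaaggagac

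These windows were unlike each other although the genes share a family. Hoxd1, in E13.5 WT alone, had 29 CpG dinucleotides and 69.7% G and C, and Hoxa9, in both E13.5 lists, had 4 CpG and 49.7%. Hoxa6, in E13.5 KO alone, had 26 CpG and 62% G and C, with 4 TAAT matches. Hoxd1 had no TAAT match. RefSeq gives a pair of windows for Hoxa10. The one printed, at the annotated 5′ end of the gene, had 12 CpG and 1 TAAT match, and the other (chr6:52234890-52235189, minus) had 21 CpG and 3. Hoxd3 had 20 CpG and its paralogue Hoxa3 also 20, with 54% G and C in Hoxd3 and 64% in Hoxa3. The start site of the Hoxa3 window, 52213067, lies inside the gene, whose annotated 5′ end is 52213336. That of the Hoxa9 window, 52227370, also lies inside its gene, whose annotated 5′ end is 52231089. The start sites of Hoxa6 (52208672 against 52208722), Hoxb1 (96365758 against 96365752) and Hoxd3 (74711993 against 74711927) lie inside too, by fewer bases. Hoxb1 had 10 CpG and 1 match to TGATNNAT, written TGATGGAT above. That stretch of the mouse Hoxb1 promoter is known as an element through which Hoxb1 and Pbx proteins maintain Hoxb1 in the hindbrain.

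RefSeq windows were at hand for 22 of the 39 Hox genes, 24 windows in all since Hoxa10 and Hoxd11 have a pair each. The median was 11 CpG over the 8 windows of genes in 3 complete lists, 20.5 over the 8 of genes in 1 or 2 lists and 17.5 over the 8 of genes in no list. Over all 32851 promoter windows the median was 7. The median share of G and C was 56.8% for genes in 3 lists, 58.3% for those in 1 or 2, 58.5% for those in none and 52.7% over all windows. TAAT was in 7 of the 8 windows of genes in 3 lists, in 7 of 8 for 1 or 2 lists, in 5 of 8 for none and in 58% of all windows. TGATNNAT was in 2 of 8, 1 of 8 and 1 of 8 in the same order, and in 8.85% of all windows. The TGATNNAT matches of genes in all 3 complete lists were in Hoxa2 and Hoxb8. CpG counts ranged from 6 to 29 in genes of 3 complete lists, from 4 to 29 in those of 1 or 2 lists and from 4 to 45 in those of none, so the ranges overlapped.

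Exonic length overlapped between listed and unlisted Hox genes. It had a median of 2568 bases over the 17 genes in all 3 complete lists, 2408 over the 11 in 1 or 2 lists and 2461 over the 11 in none, with ranges of 1544 to 6014, 874 to 5580 and 1031 to 4212 bases. Hoxa6, in 1 list, had the fewest exonic bases, 874, and Hoxc12, in none, had 1031. In 9 of the 39 genes exons share bases with another gene on the same strand, and reads there can be split or dropped by counting. The overlap was largest for Hoxd3, with 62.3% of its 4191 exonic bases, and for Hoxd4, with 52.3% of 2948, since these share exons with each other and with the read-through gene Gm28230. The listing of Hoxd3 in both E13.5 lists and the absence of Hoxd4 from every list are uncertain for this reason. Among the other 7 such genes the shared part was between 1.52% (Hoxa9) and 15% (Hoxa2).

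Other genes inside the clusters were also listed least often in E15.5 KO. Of 46 other annotated genes between the first and last Hox gene of each cluster, 7 were listed in E15.5 KO, 15 in E13.5 KO and 16 in E13.5 WT. All 7 were in both E13.5 lists, and 0 were in E15.5 KO only against E13.5 KO while 8 were in E13.5 KO only, which is 53.3% of the 15 listed in either. Only 3 of the 46 are protein-coding, and over all genes that are not protein-coding 15.2% were in E15.5 KO only and 19.2% in E13.5 KO only. Of the 46, 7 are microRNA genes and 16 are annotated as miscellaneous RNA. Of the 23 left without these, 6 were listed in E15.5 KO, 13 in E13.5 KO and 15 in E13.5 WT. The antisense genes Hotairm1, Hoxaas3 across Hoxa3 to Hoxa7, Hoxb3os across Hoxb2 and Hoxb3, and Hoxb5os across Hoxb5 and Hoxb6 were in all 3 complete lists, as were Gm15050, Gm27477 and the processed pseudogene Gm11539. In both E13.5 lists and not in E15.5 KO were Hoxaas2, Gm29430 and the coding 5730596B20Rik in HoxA, the intergenic RNA Gm53 in HoxB, and Hoxd3os1, Haglr and Gm14424 in HoxD. E13.5 KO alone held Gm27605, and E13.5 WT alone held Gm11536 and Gm14426.

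In HoxD, Hoxd3os1 and Haglr shared the listing of Hoxd3, in both E13.5 lists and not in E15.5 KO, but not that of the other Hox genes they overlap or adjoin. Hoxd3os1 also overlaps Hoxd8, in all 3 complete lists, and Hoxd4, in none. Haglr, read in the opposite direction, starts beside the start of Hoxd1, a gene in E13.5 WT alone, and ends at Hoxd3. Whether counting used the strand is not given in the sources used here. It is therefore unknown whether reads of a Hox gene and of its antisense partner were told apart. Opposite-strand exons cover 52.9% of the exonic bases of Hoxb3, 27.3% of Hoxb2, 25.4% of Hoxa3, 20.4% of Hoxa7 and 16% of Hoxa4. All of these were in every complete list. For Hoxd3 the share is 8.78%. Opposite-strand exons also cover 35% of Hoxa11 and 11.8% of Hoxd4, both in no complete list. Whether antisense overlap goes with listing was not tested. Hotair and Hoxa11os, long non-coding RNAs of the high-number ends of HoxC and HoxA, were in no complete list. None of the 7 microRNA genes inside the clusters, among them Mir10a, Mir10b and Mir196b, was listed. How many microRNA genes outside the clusters were listed was not counted.

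Genes just outside the clusters were listed almost throughout. Of the 24 nearest protein-coding genes, 3 on each side of each cluster, 22 were listed in E15.5 KO, 22 in E13.5 KO and 23 in E13.5 WT. The exceptions were the 2 homeobox genes that flank the high-number ends of clusters. Evx1, next to Hoxa13, was in E13.5 WT alone, and Evx2, next to Hoxd13, was in no complete list. The neighbours Skap2 and Hibadh of HoxA, Skap1 and Ttll6 of HoxB, Smug1 and Calcoco1 of HoxC, and Mtx2 and Lnpk of HoxD were in all 3. For scale, of all 21951 annotated protein-coding genes, 16717 were listed in E15.5 KO, 17154 in E13.5 KO and 17108 in E13.5 WT. In no complete list were 18.2% of them.

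Partners and regulators of the Hox genes were nearly all listed in every complete list, so their listing could show little difference between libraries and says nothing of their levels. Counting each gene once, 91 of 96 were listed in E15.5 KO and the same 91 in E13.5 KO, while 7.57% of protein-coding genes were in 1 of these KO lists only. The 9 TALE homeodomain cofactors, which bind DNA together with Hox proteins, were in all 3 complete lists, Meis1 and Pknox1 among them. So were the 32 genes of the Polycomb complexes, which keep Hox genes silent (Ezh2 and Bmi1, for example), and the 21 genes of the Trithorax group and of histone H3 demethylases, which keep them active (Kmt2a and Kdm6b). Of 18 genes for the making, breakdown and sensing of retinoic acid, a signal that switches on low-number Hox genes, 17 were in each complete list, and the degrading enzyme gene Cyp26c1 was in none. Of 11 other upstream regulators 10 were listed in E15.5 KO, 10 in E13.5 KO and 11 in E13.5 WT, the difference being Gbx2 of the hindbrain border. Of the 8 ParaHox and Evx genes, 5 were listed in E15.5 KO, 5 in E13.5 KO and 6 in E13.5 WT. Pdx1, Gsx1, Cdx1, Cdx2 and Cdx4 were in all 3, and the forebrain factor Gsx2 was in none.

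Genes chosen as markers of cell types other than the pancreatic epithelium were also fewer in E15.5 KO. Whether some of them are active in the epithelium as well was not checked. Of 80 such markers, 66 were listed in E15.5 KO, 78 in E13.5 KO and 80 in E13.5 WT. Between the KO ages, 1 of the 79 markers listed in either, the stomach mucin gene Muc5ac, was in E15.5 KO only, beside 2.55% of protein-coding genes, and 13, or 16.5%, were in E13.5 KO only, beside 5.03%. Mesenchyme markers numbered 17 of 19 in E15.5 KO, without Nkx3-2 and Foxf1, against 19 in E13.5 KO and 19 in E13.5 WT. Markers of neural crest, neurons and glia numbered 8 of 11 in E15.5 KO, with Foxd3 and Dbh among those missing, against 11 in E13.5 KO and 11 in E13.5 WT. Endothelial markers were 7 of 9, erythroid markers 7 of 9, immune markers 8 of 9, and nephric and gonadal markers 5 of 7 in E15.5 KO, and complete in both E13.5 lists. In E15.5 KO these lacked Cdh5 and Tie1, Hbb-bh1 and Gata1, Cd3d, and Six2 and Emx2. Markers of gut, stomach and liver were 9 of 11 in E15.5 KO, 9 in E13.5 KO and 11 in E13.5 WT, and the 5 mesothelial markers were in every complete list. The part of these cell types in the shorter Hox listing was not tested. Fewer cells of a type and less RNA per cell cannot be told apart in a gene list, and age, sort and library coincide in the comparison of the KO ages.

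**Figure D4:**
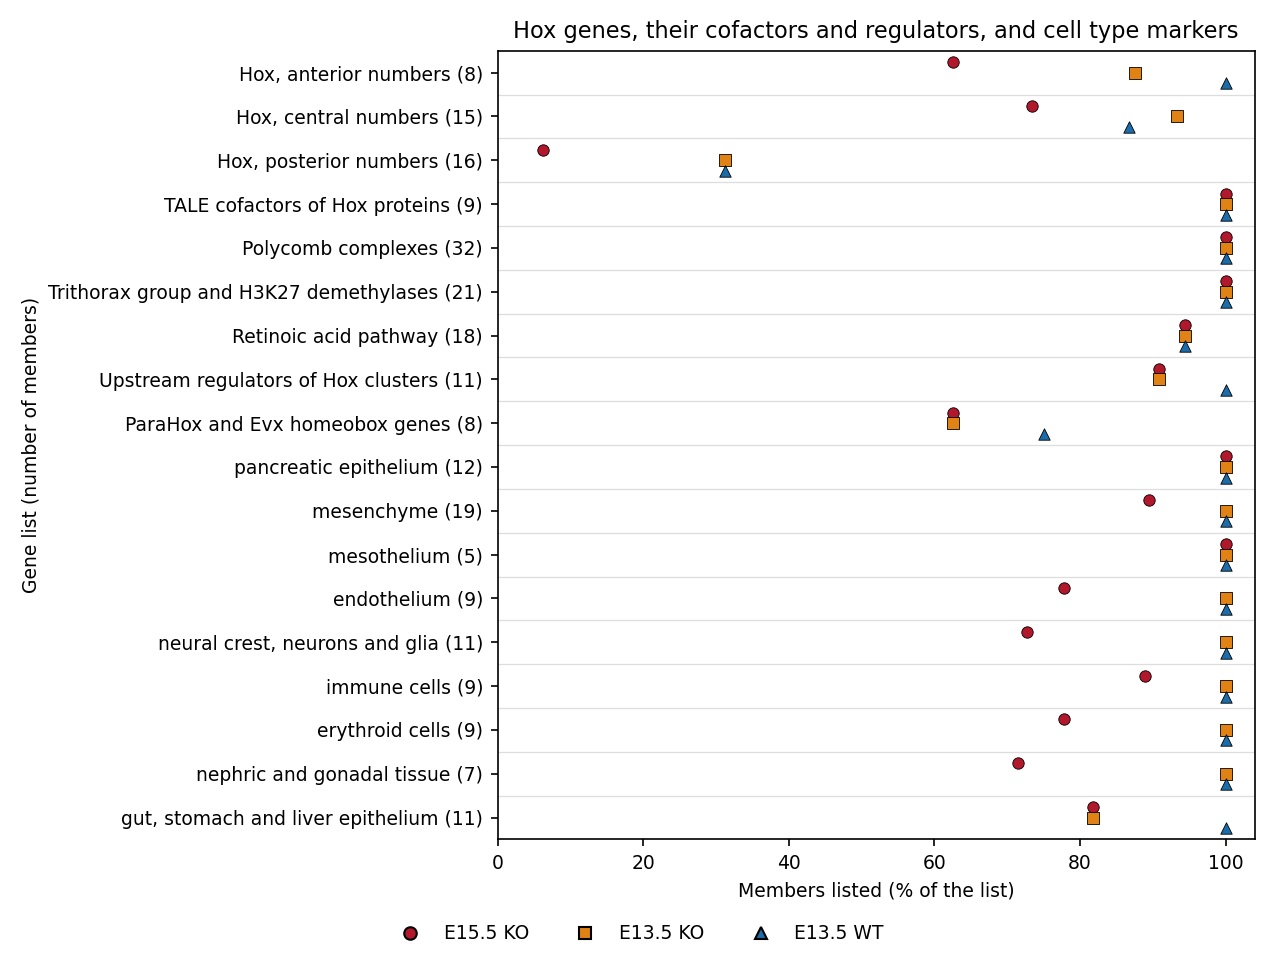
Points give the percentage of each gene list that was listed in E15.5 KO, E13.5 KO and E13.5 WT, with the number of members in brackets and the Hox genes split by paralogue number. Cofactor and Polycomb genes stand at 100% in the 3 libraries, while posterior Hox genes are at 1 of 16 in E15.5 KO and 5 of 16 in each E13.5 list.

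An entry with a symbol like that of Hoxd4 stood outside the symbol rule. The E13.5 WT list held a gene named Hoxd4_2 under ENSMUSG00000115956, an identifier that the annotation used here does not hold, while ENSMUSG00000101174, the annotated Hoxd4, was in no complete list. The other complete lists did not hold this entry, and its relation to Hoxd4 could not be checked.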

How the data were processed

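The files the authors deposited give an Ensembl identifier and a symbol per gene, in 2 columns without a header, and no values. The measure is therefore a listing. Seurat and mm10 are named in the submitters' processing notes. How reads were aligned and counted, with or without the strand, and what a gene needed to be listed is not given in the sources used here. Since the E15.5 WT list ends inside an identifier, it was compared only within the 187 annotated genes it reaches. The shares given for this stretch are over protein-coding genes listed in either library. These numbered 171 for E15.5 KO against E15.5 WT and 175 for E15.5 WT against E13.5 WT. Groups came from the sample titles.

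Coordinates, exons and gene types came from GENCODE mouse M21 (GRCm38, the assembly of mm10), which held 29604 of the 29652 listed identifiers. All 28 Hox members matched by identifier and symbol. Genes listed in 1 library only were counted with Python 3.11.15, beside the same share over all and over protein-coding genes listed in either. The counting step was tested on simulated lists. Promoter windows came from RefSeq (GRCm38.p6). No paralogue, cofactor, marker or sequence comparison carries a p-value, since each group has 1 library. All Hox genes could be named, but a few genes are not reported here by name. Other genes were named from the gene lists, or inside or beside the clusters, where complete lists differed, with a few examples. The members and gene lists were chosen with earlier results of these data known.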

Additional observations from a re-analysis of the deposited data

How the results depend on the processing

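Matching by identifier in place of symbol changed no count of Hox genes, and counting symbols with an appended number changed 1, E13.5 WT, to 27. Restricted to identifiers the E15.5 WT list covers, the Hox genes numbered 2 in E15.5 KO, 3 in E13.5 KO and 3 in E13.5 WT, with 0 in E13.5 KO only and 0 in E13.5 WT only, and 1 in E13.5 KO only against E15.5 KO, since only 3 Hox genes remain there. With protein-coding genes in place of all genes, the share in 1 library only was 7.57% in place of 17.8% between the KO ages and 6.08% in place of 16.3% at E13.5. Of the other genes inside the clusters, non-coding ones that overlap no Hox gene numbered 2 in E15.5 KO, 5 in E13.5 KO and 5 in E13.5 WT, because fewer genes are counted. Matching cofactors and regulators through older symbols changed no count. Chosen after the data were seen, only Hox genes with no shared exonic base on the same strand left 14 in E15.5 KO, 20 in E13.5 KO and 21 in E13.5 WT, with 0 in E15.5 KO only and 6 in E13.5 KO only. At E13.5 they left 1 in KO only, Hoxa6, and 2 in WT only. No paired analysis was possible because the groups hold 1 library each, and no library could be left out within a group. With unknown depth, an unlisted gene is not shown to be unexpressed.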
